A study of Oryza sativa with 18 samples.

Results

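In a small set of rice genes the mean RNA level moved little by 6 h of brown planthopper feeding and stood higher at 48 h in both plant lines of the study. With few arrays a group, a modest early change of these genes is not excluded. The set holds 11 genes, each read by 1 probe set, out of 17905 genes that have a probe set of their own on the array. A gene was taken when its mean log2 signal over the 18 arrays was 7 or more, when its 6 h group mean lay within 0.4 of the 0 h mean of the same line in both lines, and when its 48 h mean lay at least 0.8 above that 0 h mean in both lines. On the log2 scale a difference of 1 is a 2-fold difference. The genes were chosen by these group means at 6 h and 48 h, so those changes are given as a description and without a test.

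The RNA came from leaf sheaths of rice seedlings with 4 leaves, about 3 weeks old and raised in a growth chamber. The first line, NIL-Bph6, is a near-isogenic line that carries the planthopper resistance locus Bph6 and is labelled resistant. The second, NIL-Bph6-RNAi, carries, by its name, an RNA interference construct in addition and is labelled susceptible. Each line was sampled at 0 h without insects and after 6 h and 48 h of feeding by the brown planthopper, which gave 6 groups of 3 arrays labelled as biological replicates. The groups were taken from the sample titles and source names, since other label fields of the same samples name other rice lines and times. Uninfested plants kept for 6 h or 48 h are not analysed here, so feeding, plant age and hour of sampling cannot be told apart. The labels do not say whether NIL-Bph6-RNAi is a single transformation event, and a probe set for the targeted gene is not analysed here.

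The brown planthopper pushes its mouthparts into the leaf sheath and drinks phloem sap. Plants under insect attack are known to answer in stages: calcium signals, kinases and hormone synthesis come early, transcription factors such as WRKY and ERF proteins follow, and changes in metabolism, cell walls and defence proteins come later. Sieve tubes can be sealed with callose, a glucan that blocks sap flow. Of the 11 genes only 1 has a name beyond a locus number in the RefSeq gene table used here. It is OsCASPL1U2 (LOC4351034), a CASP-like protein. CASP proteins, described in Arabidopsis, are small membrane proteins that form the scaffold on which the lignified Casparian strip of the root endodermis is laid down, and CASP-like relatives occur in other plant tissues. The other 10 are given by locus number with no role.

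The arrays were alike in overall signal, with medians between 5.67 and 6.02, and the arrays of a group correlated at 0.945 to 0.965 over the probe sets. The NIL-Bph6-RNAi 48 h replicate 3 array was the least like the arrays of other groups, at a mean correlation of 0.903 against 0.922 to 0.946 for the other 17 arrays. Leaf marker probe sets were above the overall median on all arrays for 7 of 9. Their summed level (log2) was 16.97 to 17.09 at 0 h, 16.77 to 16.97 at 6 h and 16.63 to 16.81 at 48 h in NIL-Bph6, and 17.07 to 17.19, 17.02 to 17.23 and 16.57 to 16.86 at those times in NIL-Bph6-RNAi. Every 48 h sum was thus below every 0 h sum. The 4 secondary wall cellulose synthase probe sets were above the median on all arrays, and their sum was 13.67 to 13.99 at 0 h and 11.57 to 12.94 at 48 h in NIL-Bph6-RNAi, while in NIL-Bph6 the ranges of 12.45 to 13.81 and 13.03 to 13.24 overlapped. The phloem sucrose transporter OsSUT1 was at 10.02 to 10.17 at 0 h and 10.39 to 10.94 at 48 h in NIL-Bph6-RNAi, and at 9.83 to 10.15 and 9.53 to 10.74 in NIL-Bph6. The part of these shifts in the late rises described below was not tested. Endosperm markers were above it on all arrays for 1 of 9 and on none for 5, and the meristem gene OSH1 was below it on all arrays with both of its 2 probe sets. In bulk tissue such as this, fewer cells of a type and less RNA per cell cannot be told apart.

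The late rise was the rare course among genes that stood higher at 48 h. Here and below, rose and fell with a stated limit mean that the group mean passed that limit, and not a test. Of 16322 single-gene probe sets at the level of 7 or more, 689 rose by at least 0.8 at 48 h in both lines, and 678 of these had already moved by more than 0.4 at 6 h in at least 1 line. The 6 h mean was above the 0 h mean in both lines for 660 of those 678. The remaining 11 are the genes described here, 0.0674% of the probe sets at that level. A steady start was itself common, since 9569 probe sets, or 58.6%, stayed within 0.4 at 6 h in both lines. Of these steady probe sets, 0.115% rose at 48 h in both lines, against 10.04% of the 6753 that moved at 6 h. The 6 h and 48 h changes of a line share the 0 h arrays, so these shares are descriptions. A further 12 probe sets met both conditions on the changes but had a mean signal under 7.

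Within each line taken alone, more steady probe sets stood higher at 48 h. In NIL-Bph6 32 of the 9569 rose by 0.8 or more at 48 h, and in NIL-Bph6-RNAi 204 did. The 11 genes are the overlap, 34.4% of the NIL-Bph6 group and 5.39% of the NIL-Bph6-RNAi group.

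The median change of the 11 genes was 0.08 at 6 h in NIL-Bph6, with a range from -0.32 to 0.39, and 1.05 at 48 h, with a range from 0.80 to 1.38. In NIL-Bph6-RNAi the median change was 0.22 at 6 h, from -0.19 to 0.37, and 1.44 at 48 h, from 0.82 to 2.13. The 678 probe sets that moved early had median changes of 1.01 at 6 h and 1.28 at 48 h in NIL-Bph6, and of 1.17 and 1.99 in NIL-Bph6-RNAi. Over all 16322 probe sets the 4 medians lay between -0.05 and 0.02. Between 6 h and 48 h the 11 genes gained a median of 0.89 for NIL-Bph6 and 1.56 for NIL-Bph6-RNAi.

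OsCASPL1U2 (LOC4351034, chromosome 11) had the largest late change of the 11 in NIL-Bph6-RNAi. Its log2 signal in NIL-Bph6 was 8.07, 7.57 and 7.94 at 0 h, 8.12, 8.03 and 8.47 at 6 h, and 9.21, 8.83 and 8.80 at 48 h. In NIL-Bph6-RNAi it was 7.91, 7.45 and 8.08 at 0 h, 8.28, 7.77 and 8.01 at 6 h, and 10.29, 9.48 and 10.06 at 48 h. All 48 h arrays lay above all earlier arrays of their line, and the 48 h arrays of NIL-Bph6-RNAi lay above those of NIL-Bph6. The change from 0 h was 0.35 at 6 h and 1.09 at 48 h in NIL-Bph6, and 0.20 and 2.13 in NIL-Bph6-RNAi.

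LOC4330310 (chromosome 2), for which the table lists 10 transcripts, had the largest late change of the 11 in NIL-Bph6. Its NIL-Bph6 arrays read 7.94, 6.99 and 8.02 at 0 h, 7.93, 7.77 and 7.36 at 6 h, and 9.70, 8.93 and 8.46 at 48 h. The NIL-Bph6-RNAi arrays read 9.27, 7.63 and 8.31 at 0 h, 9.07, 7.90 and 8.91 at 6 h, and 9.9994, 10.30 and 10.96 at 48 h. The 48 h arrays stood apart from the earlier ones in both lines, and NIL-Bph6-RNAi was higher on average at all 3 times. The replicates at 0 h were widely spread, with an SD of 0.57 for NIL-Bph6 and 0.82 for NIL-Bph6-RNAi (n = 3 each), beside changes of 1.38 and 2.02 at 48 h.

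LOC4326518 (chromosome 1) was already bright before feeding. In NIL-Bph6 it read 11.996, 11.76 and 12.28 at 0 h, 12.62, 10.88 and 11.96 at 6 h, and 13.04, 13.37 and 12.77 at 48 h. In NIL-Bph6-RNAi it read 11.76, 10.73 and 11.05 at 0 h, 11.88, 10.65 and 11.85 at 6 h, and 13.11, 13.21 and 13.50 at 48 h. The lines met at 48 h, with overlapping arrays, from 0 h means of 12.01 for NIL-Bph6 and 11.18 for NIL-Bph6-RNAi, so the changes from 0 h were 1.05 and 2.09. The 6 h replicate 2 array was the lowest of its group in both lines.

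LOC4325628 (chromosome 1) read 8.19, 7.61 and 8.84 at 0 h, 8.39, 7.79 and 8.22 at 6 h, and 8.89, 9.70 and 9.32 at 48 h in NIL-Bph6. In NIL-Bph6-RNAi it read 7.89, 7.98 and 7.57 at 0 h, 8.25, 7.58 and 8.46 at 6 h, and 10.05, 9.48 and 9.74 at 48 h. The lines overlapped at every time, and the 48 h changes were 1.09 for NIL-Bph6 and 1.95 for NIL-Bph6-RNAi. In NIL-Bph6 the lowest 48 h array, at 8.89, was only just above the highest 0 h array, at 8.84. A further probe set of this gene had a mean of 3.42 and was too dim to be read.

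LOC4326724 (chromosome 1) had the lowest mean signal of the 11, at 7.63. It read 6.89, 7.43 and 7.55 at 0 h, 7.39, 6.22 and 7.30 at 6 h, and 8.32, 8.77 and 7.87 at 48 h in NIL-Bph6. In NIL-Bph6-RNAi it read 7.26, 7.43 and 6.51 at 0 h, 7.47, 7.17 and 7.20 at 6 h, and 9.17, 8.16 and 9.21 at 48 h. Its 48 h arrays lay above all earlier ones in both lines, with changes of 1.03 and 1.78. At 6 h it moved by -0.32 in NIL-Bph6 and by 0.21 in NIL-Bph6-RNAi, both smaller than the SD at 0 h of 0.36 and 0.49.

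**Figure D1:**
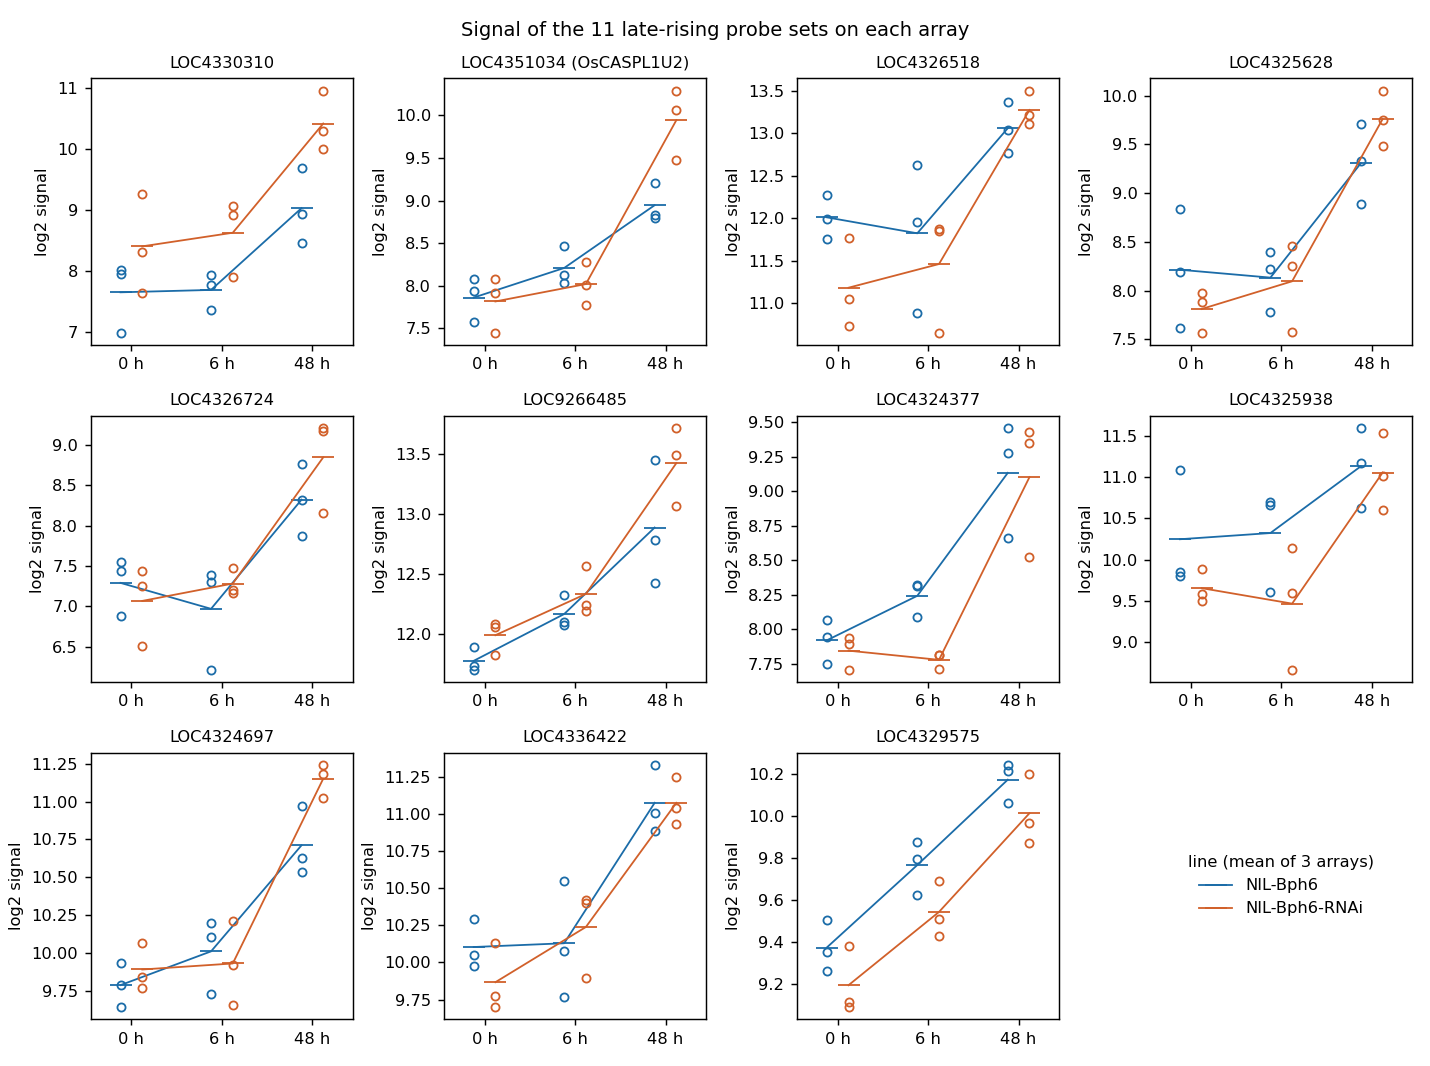
Log2 signal (y axis, with a range of its own in each panel) on each of the 18 arrays at 0 h, 6 h and 48 h (x axis) for the 11 late-rising genes; points are arrays, dashes joined by lines are group means (n = 3), and colours are the 2 lines. The 48 h points lie above the 0 h and 6 h points of their line in all panels except LOC4325938, where the NIL-Bph6 arrays overlap.

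LOC9266485 (chromosome 5) had 6 h changes close to the limit in both lines. In NIL-Bph6 it read 11.89, 11.73 and 11.70 at 0 h, 12.10, 12.32 and 12.07 at 6 h, and 13.45, 12.43 and 12.78 at 48 h. The NIL-Bph6-RNAi arrays gave 11.82, 12.08 and 12.06 at 0 h, 12.19, 12.56 and 12.24 at 6 h, and 13.49, 13.06 and 13.72 at 48 h. All 6 h arrays of each line lay above all its 0 h arrays, by 0.39 and 0.34 on average, and all 48 h arrays lay above both, at changes of 1.11 and 1.44. The ending of the probe set's identifier (_s_at) marks probes that may match transcripts of more than 1 gene.

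A second probe set is assigned both to LOC9266485 and to LOC9266317, which lies 2 genes away. In NIL-Bph6 it read 8.61, 8.68 and 8.53 at 0 h, 8.77, 9.22 and 8.91 at 6 h, and 10.67, 9.13 and 9.59 at 48 h. For NIL-Bph6-RNAi plants it read 8.57, 8.70 and 8.64 at 0 h, 8.87, 9.18 and 8.91 at 6 h, and 10.55, 10.21 and 10.87 at 48 h. Its changes of 0.36 and 0.35 at 6 h and of 1.19 and 1.91 at 48 h met the conditions on the changes, but a probe set shared by 2 genes is not a single-gene one. In both probe sets the NIL-Bph6 48 h replicate 1 array was the highest of its group. The single-gene probe set of LOC9266317 moved by 1.52 at 6 h and 2.03 at 48 h in NIL-Bph6, and by 1.53 and 3.42 in NIL-Bph6-RNAi.

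LOC4324377 (chromosome 1, 3 transcripts) changed by almost the same amount in both lines. It read 8.07, 7.94 and 7.75 at 0 h, 8.09, 8.31 and 8.32 at 6 h, and 9.46, 8.66 and 9.28 at 48 h in NIL-Bph6. The values in NIL-Bph6-RNAi were 7.71, 7.89 and 7.94 at 0 h, 7.82, 7.71 and 7.81 at 6 h, and 9.35, 9.43 and 8.53 at 48 h. The 48 h arrays stood apart from the earlier ones in both lines and overlapped between the lines, at changes of 1.21 and 1.26. At 6 h every NIL-Bph6 array was higher than every 0 h array, by 0.32 on average, while NIL-Bph6-RNAi moved by -0.07.

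LOC4325938 (chromosome 1) was the exception among the 11. Its NIL-Bph6 arrays read 11.09, 9.85 and 9.80 at 0 h, 10.66, 9.61 and 10.70 at 6 h, and 10.63, 11.60 and 11.17 at 48 h. The 48 h arrays overlapped the 0 h and the 6 h arrays, and the mean rise of 0.89 compares with an SD at 0 h of 0.73 (n = 3), which rests on replicate 1. In NIL-Bph6-RNAi the arrays read 9.58, 9.49 and 9.88 at 0 h, 10.14, 8.66 and 9.60 at 6 h, and 11.54, 10.60 and 11.02 at 48 h, with no overlap between 48 h and earlier and a change of 1.40.

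LOC4324697 (chromosome 1) had a narrow spread and a clear step. It read 9.64, 9.93 and 9.79 at 0 h, 10.20, 10.10 and 9.73 at 6 h, and 10.97, 10.63 and 10.53 at 48 h in NIL-Bph6. NIL-Bph6-RNAi plants gave 9.77, 10.06 and 9.84 at 0 h, 10.21, 9.92 and 9.66 at 6 h, and 11.03, 11.19 and 11.24 at 48 h. The 0 h and 6 h arrays overlapped in both lines. All 48 h arrays lay above them, and those of NIL-Bph6-RNAi lay above those of NIL-Bph6, at changes of 1.26 and 0.92.

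LOC4336422 (chromosome 4) reached the same 48 h mean of 11.08 in both lines. It read 9.97, 10.05 and 10.29 at 0 h, 9.77, 10.55 and 10.07 at 6 h, and 11.33, 11.01 and 10.89 at 48 h in NIL-Bph6. The NIL-Bph6-RNAi arrays gave 9.70, 10.13 and 9.77 at 0 h, 10.40, 10.42 and 9.90 at 6 h, and 10.93, 11.04 and 11.25 at 48 h. The 48 h arrays lay above all earlier ones in both lines, at changes of 0.97 and 1.21.

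LOC4329575 (chromosome 2) was the gene nearest to both limits of the rule. It read 9.35, 9.26 and 9.50 at 0 h, 9.62, 9.88 and 9.80 at 6 h, and 10.06, 10.21 and 10.24 at 48 h in NIL-Bph6. For NIL-Bph6-RNAi plants it read 9.11, 9.09 and 9.38 at 0 h, 9.69, 9.43 and 9.51 at 6 h, and 9.97, 10.20 and 9.87 at 48 h. Its arrays climbed in 2 steps of like size with no overlap between times in either line. Its rise was thus not only a late one, although it met the rule. The rule did not select it under any of the 3 other scalings tried. The change was 0.39 at 6 h and 0.80 at 48 h in NIL-Bph6, and 0.35 and 0.82 in NIL-Bph6-RNAi.

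The 3 arrays of 48 h lay above the 3 of 0 h in NIL-Bph6 for 10 of the 11 genes, where 16.1% of the 32732 tested probe sets did so, and in NIL-Bph6-RNAi for all 11, where 23.4% did. They lay above the 6 h arrays for 10 genes in NIL-Bph6 against 11.2% of tested probe sets, and for 11 in NIL-Bph6-RNAi against 13.1%. Above both earlier times and in both lines they lay for 10 genes against 1.41%. The rule used these contrasts, so nothing is read from the excess, and LOC4325938 is the gene left out. For 6 h arrays lying above 0 h arrays, as given for LOC9266485, LOC4324377 and LOC4329575, the share of tested probe sets was not taken.

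The median level over the 11 genes was also taken on each array, where it is the level of the gene that ranked in the middle. This median was 9.35, 9.26 and 9.50 at 0 h, 9.62, 9.61 and 9.73 at 6 h, and 10.06, 10.21 and 10.24 at 48 h in NIL-Bph6. In NIL-Bph6-RNAi it was 9.27, 9.09 and 9.38 at 0 h, 9.69, 8.66 and 9.51 at 6 h, and 10.29, 10.30 and 10.96 at 48 h. The 48 h medians were above all earlier ones in both lines, and in NIL-Bph6 the 6 h medians were above the 0 h ones. The middle gene was LOC4329575 on most NIL-Bph6 arrays and changed between arrays in NIL-Bph6-RNAi. These medians therefore do not give the course of the set. The NIL-Bph6-RNAi 6 h replicate 2 array was the lowest of its group for 8 of the 11 genes and replicate 1 the highest for 8. The same counts over all tested probe sets were not taken, so this describes these genes only. By its mean correlation with its own group, 0.955, replicate 2 lay between replicate 1 (0.960) and replicate 3 (0.952). Without replicate 2 the rule selected 8 probe sets, 7 of them among the 11. On its control probe sets the 3' end exceeded the 5' end by 1.57, between the 1.96 and 1.04 of the other arrays of its group.

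With 3 arrays a group, a flat start could not be told from a modest early change. The 95% interval of the 6 h change, from the limma fit, reached beyond 0.4 in size for 11 of the 11 genes in NIL-Bph6 and for 10 in NIL-Bph6-RNAi, the exception being LOC4324697. It included 0 for 10 genes in each line. For LOC4329575 it excluded 0 in both, running from 0.12 to 0.67 in NIL-Bph6 and from 0.08 to 0.62 in NIL-Bph6-RNAi. Because the rule chose the genes by these changes, the intervals describe precision and are not tests against 0. The interval of the 48 h change reached below 0.8 for all 11 genes in NIL-Bph6 and for 4 in NIL-Bph6-RNAi. The 6 h change was above 0 for 8 genes in NIL-Bph6, for 9 in NIL-Bph6-RNAi and for 6 in both. The same counts over all probe sets were not taken. The 48 h rise that chose the genes also uses the same 0 h arrays, so no early lean is read from these counts.

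**Figure D2:**
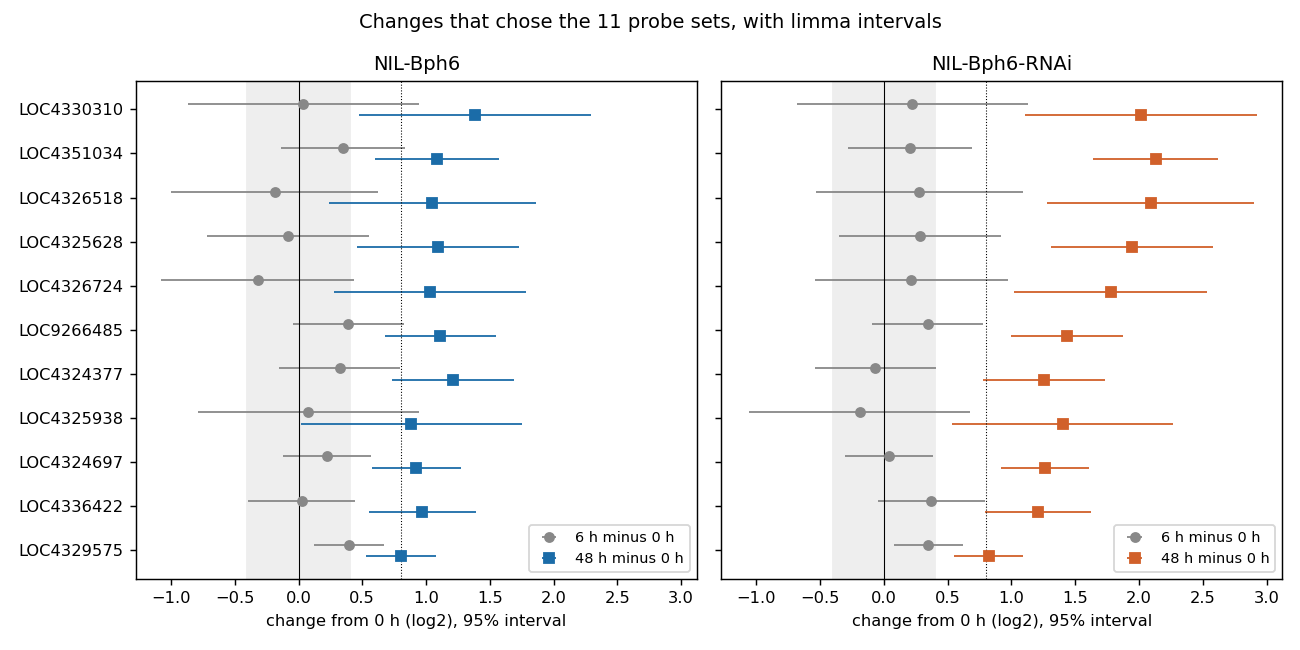
Change in log2 signal against 0 h (x axis) for each of the 11 genes (y axis) at 6 h and 48 h in NIL-Bph6 and NIL-Bph6-RNAi; points are differences of group means (n = 3 each) and bars are 95% intervals from the limma fit. The 6 h bars reach past 0.4 in size for 11 genes for NIL-Bph6 and 10 for NIL-Bph6-RNAi, and the 48 h bars of NIL-Bph6 all reach below 0.8.

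The late change was larger in NIL-Bph6-RNAi than in NIL-Bph6 for 11 of the 11 genes, by 0.02 for LOC4329575 up to 1.04 for OsCASPL1U2 and for LOC4326518. It was also larger there for 583 of the 678 probe sets that moved early, so the direction was shared with genes of the other course. The same share over all 16322 probe sets at the level was not taken. Among those, 12% rose and 14.6% fell by 0.8 or more at 48 h in NIL-Bph6-RNAi, against 8.27% and 5.48% in NIL-Bph6. Nothing particular to the 11 is therefore read from the direction. The rule used both changes, and no test of the difference is given. At 48 h itself the NIL-Bph6-RNAi arrays lay above the NIL-Bph6 arrays for 3 of the 11, LOC4330310, OsCASPL1U2 and LOC4324697, where 12.9% of tested probe sets did so. None of the 11 had the reverse order, which 17.2% of tested probe sets had. At 0 h the lines overlapped for all 11, where 8.59% of tested probe sets were apart with NIL-Bph6-RNAi higher and 13.5% with NIL-Bph6 higher.

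The level of a gene in one line against the other, averaged over the 3 times, is a measure the rule did not use, and it was tested with limma over all 32732 probe sets. LOC4330310 passed: it was lower in NIL-Bph6 by a log2 difference of -1.03 ± 0.25 (SE, 9 arrays a line), with a limma adjusted p of 0.0254. Its group means were 7.65 for NIL-Bph6 and 8.40 for NIL-Bph6-RNAi at 0 h, 7.69 and 8.63 at 6 h, and 9.03 and 10.42 at 48 h. The single arrays overlapped at 0 h and 6 h. Among all tested probe sets 4.42% passed in either direction and 2.13% as lower in NIL-Bph6, and 2.29% passed as higher there, as none of the 11 did, so the members' share of 9.09% rests on 1 gene. The overall split was 749 higher and 697 lower in NIL-Bph6, and it became 506 higher and 1185 lower when each array was centred on its median.

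The call for LOC4330310 ended in 6 of 28 alternative fits. With the 3' to 5' control difference of each array as a covariate the difference was -0.84 ± 0.29, with a limma adjusted p of 0.182. The call also ended without NIL-Bph6 6 h replicate 3 (limma adjusted p of 0.0527), NIL-Bph6 48 h replicate 3 (0.0542), NIL-Bph6-RNAi 0 h replicate 1 (0.0516), NIL-Bph6-RNAi 6 h replicate 3 (0.0564) or NIL-Bph6-RNAi 48 h replicate 3 (0.0501). Over all 28 the limma adjusted p ran from 0.00749 to 0.182 and the difference from -1.16 to -0.84. The control difference itself ranged from 0.31 to 1.54 on the NIL-Bph6 0 h arrays and from 1.53 to 2.17 on those of NIL-Bph6-RNAi. At the later times the lines overlapped widely. The ranges for NIL-Bph6 and NIL-Bph6-RNAi were 0.93 to 1.72 and 1.04 to 1.96 at 6 h. At 48 h they were 0.996 to 1.51 and 1.06 to 1.62.

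No line difference passed for the other 10 genes. The largest were 0.51 ± 0.24 for LOC4325938, with a 95% interval from 0.01 to 1.01 and a limma adjusted p of 0.247, and 0.32 ± 0.22 for LOC4326518, with an interval from -0.14 to 0.79. On the other side LOC9266485 had -0.31 ± 0.12, with an interval from -0.56 to -0.05, and OsCASPL1U2 had -0.26 ± 0.13, with an interval from -0.54 to 0.03. LOC9266485 passed when NIL-Bph6 48 h replicate 1 was left out, at -0.40 with a limma adjusted p of 0.0276 against 0.163 with all arrays. The other 6 lay between -0.20 for LOC4326724 and 0.19 for LOC4324377 and LOC4329575. Before adjustment 4 of the 11 had p under 0.05, of which 2 were higher and 2 lower in NIL-Bph6. Over all tested probe sets 19.6% had such a p, 11.7% as higher and 7.92% as lower. The median line difference of the 11 was -0.0039, beside 0.03 over all tested probe sets.

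**Figure D3:**
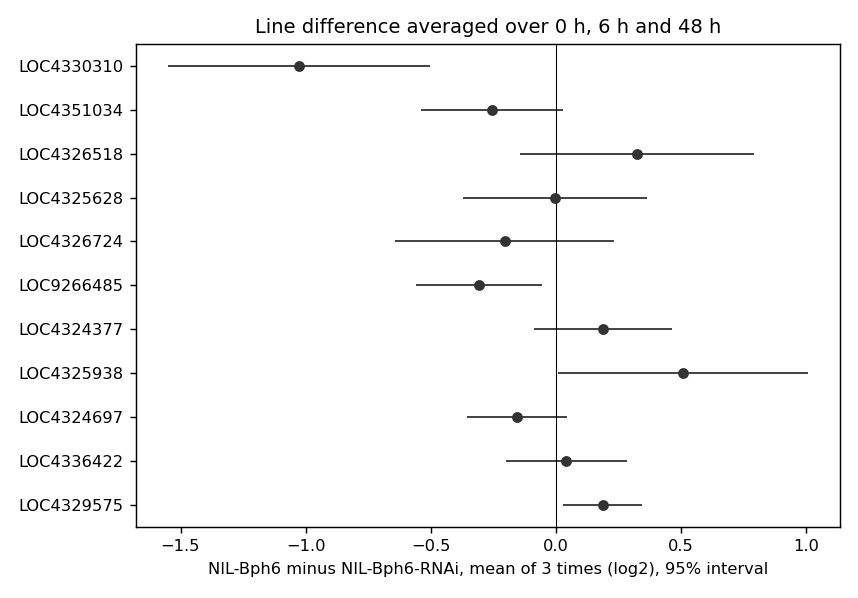
Log2 difference NIL-Bph6 minus NIL-Bph6-RNAi averaged over 0 h, 6 h and 48 h (x axis) for each of the 11 genes (y axis); points are limma estimates from 9 arrays a line and bars are 95% intervals. LOC4330310, at -1.03, is the gene that passed the adjusted threshold, and the other 10 lie between -0.31 and 0.51.

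The CASP-like family was looked up after OsCASPL1U2 had been found among the 11. It has 22 genes with 29 probe sets here, of which 22 probe sets from 19 genes reached the level of 7. At 48 h 2 of these rose by 0.8 or more in NIL-Bph6, OsCASPL1U2 and OsCASPL4B4 (1.499), and 2 in NIL-Bph6-RNAi, OsCASPL1U2 and OsCASPL1D1 (1.20). Of all 16322 single-gene probe sets at that level, 8.27% rose so in NIL-Bph6, while 12% did in NIL-Bph6-RNAi. OsCASPL1U2 was the single probe set that did so in both, which is 4.55% of the family beside 4.22% of all probe sets at that level. In the other direction 1 fell by 0.8 or more in NIL-Bph6, OsCASPL2C2 (-1.59), and 8 in NIL-Bph6-RNAi, beside 5.48% and 14.6% of all probe sets at that level. The family medians were 0.18 at 6 h and 0.07 at 48 h in NIL-Bph6, and -0.26 and -0.55 in NIL-Bph6-RNAi.

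The gene directly next to OsCASPL1U2 on chromosome 11, OsCASPL1U3 (LOC4351033), is also CASP-like and took another course. In NIL-Bph6 it read 9.16, 9.76 and 7.77 at 0 h, 8.81, 9.49 and 9.36 at 6 h, and 8.70, 8.71 and 9.14 at 48 h. The values in NIL-Bph6-RNAi were 9.89, 9.95 and 9.72 at 0 h, 9.24, 9.40 and 8.74 at 6 h, and 8.85, 8.56 and 7.78 at 48 h. The NIL-Bph6 arrays of the 3 times overlapped, while in NIL-Bph6-RNAi each later group lay below the 0 h arrays. Its mean moved from 8.90 ± 1.02 at 0 h to 8.85 ± 0.25 at 48 h in NIL-Bph6, and from 9.86 ± 0.12 to 8.40 ± 0.55 in NIL-Bph6-RNAi (SD, n = 3 each).

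**Figure D4:**
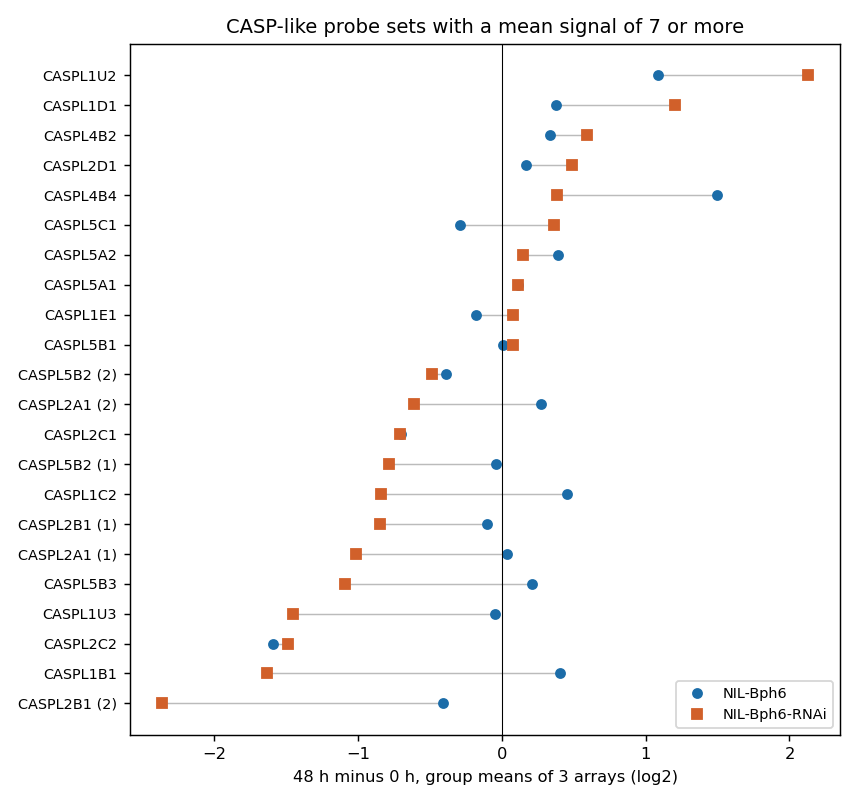
Change in mean log2 signal at 48 h against 0 h (x axis) in NIL-Bph6 and NIL-Bph6-RNAi for the 22 CASP and CASP-like probe sets at a mean signal of 7 or more (y axis). OsCASPL1U2 is the one with a rise past 0.8 in both lines (1.09 and 2.13), and 8 probe sets lie at -0.8 or below in NIL-Bph6-RNAi.

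The 11 genes were looked for in 28 lists of defence, hormone, transport and cell wall genes, matched by symbol or synonym. The CASP-like list held 1 and the other 27 held none. In those 27 lists 66 of their probe sets rose by 0.8 or more in both lines at 48 h, and 0 of these 66 had stayed within 0.4 at 6 h. Among all single-gene probe sets at the level, 11 of the 689 that rose so had stayed within that limit. The 0 of 66 is near that small share, so nothing is read from it. Among WRKY factors, which bind DNA in defence responses, 5 of 7 probe sets rose in both lines, with list medians of 1.61 for NIL-Bph6 and 3.35 for NIL-Bph6-RNAi at 48 h and of 1.27 and 0.84 at 6 h. Over all probe sets at the level, 4.22% rose in both lines.

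Among ERF and DREB factors 4 of 9 rose in both lines, among MYB factors 3 of 9, and among jasmonate genes, which make and relay a wound hormone, 8 of 35. Calcium sensors and kinases had 12 of 75, protein phosphatases 2C 10 of 59, abscisic acid genes and LEA proteins 4 of 20, and ammonium, glutamine and glutamate genes 2 of 13. Phenylpropanoid and lignin genes had 3 of 30, cellulose synthase-like and expansin genes 3 of 46, chitinases and PR proteins 2 of 26, and heat shock factors 2 of 17. A single probe set rose in each of the lists of NAC factors, bZIP and TGA factors, germin-like proteins, heat shock proteins, MAP kinases, phosphate transport, sugar transport, and auxin genes. None rose in both lines in 7 lists: ethylene, peroxidases and thioredoxins, metallothioneins, diterpene and phytoalexin synthesis, potassium transporters, aquaporins, and ABC transporters. The lists cover only genes that carry a symbol, and 10 of the 11 late-rising genes carry none, so absence from a list says nothing of what those 10 do.

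By position 6 of the 11 genes lie on chromosome 1, which holds 14.9% of the genes at the level. Chromosome 2 holds 2, and chromosomes 4, 5 and 11 hold 1 each. The genes on chromosome 1 are far apart in gene order, with 36 to 1707 genes between neighbours in the set, and the 2 on chromosome 2 have 883 between them, so no pair is adjacent. Of the genes within 3 places of a late riser, 33 had a tested probe set, and 2 of these rose by 0.8 or more at 48 h in both lines, beside 4.31% of all tested probe sets. They are LOC9266317, described above, and LOC4326519, directly next to LOC4326518. LOC4326519 moved by -0.25 at 6 h and 1.41 at 48 h in NIL-Bph6, and by 1.29 and 3.23 in NIL-Bph6-RNAi. Its 6 h change was inside the 0.4 limit in NIL-Bph6 and outside it in NIL-Bph6-RNAi. For 8 of the 11 genes the RefSeq table lists 1 transcript.

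The genes on either side of the limits differed little. Just inside the 48 h limit of 0.8 were LOC4329575, LOC4325938 and LOC4324697, where the smaller of both lines' changes was 0.80, 0.89 and 0.92. Just outside it were LOC9268762 at 0.76, LOC4328841 at 0.75 and Cht4 (LOC4336263), a chitinase that cuts the chitin of fungal walls and insects, at 0.74. In NIL-Bph6-RNAi those 3 changed by 0.95, 1.87 and 1.73. Just outside the 6 h limit of 0.4 were LOC4345880 at 0.4006, LOC4335125 at 0.41 and the heat shock factor HSFA6B (LOC4326351) at 0.42, and these 3 were named after their values were seen. The nearest gene under the level limit, LOC4327536, had a mean of 6.78 against 7.63 for LOC4326724.

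Membership itself moved with single arrays. When each of the 18 arrays was left out in turn, the rule selected between 8 and 17 probe sets, kept between 6 and 11 of the 11, and took in 33 other probe sets at least once. LOC4324377 was the only gene kept in all 18 selections, and LOC4324697 was kept in 17. LOC4325938 was kept in 12 and LOC4329575 in 7. LOC4330310, OsCASPL1U2, LOC4325628 and LOC4336422 were kept in 16, LOC4326518 and LOC4326724 in 15, and LOC9266485 in 14. Leaving out the NIL-Bph6-RNAi 48 h replicate 3 array kept all 11.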

How the data were processed

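RNA from rice leaf sheaths was measured on 18 Affymetrix rice arrays, 3 in each of 6 groups. The deposited values are the authors' log2 signals of 57381 probe sets, and the MAS5 algorithm is named per the submitters' processing notes; its version is not given in the sources used here. On the linear scale the mean trimmed by 2% at each end was 500.1 on every array, so the authors' values had been scaled to a common mean, and no further normalization was applied. The array number limits the precision.

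After 123 control probe sets were set aside, the 32732 probe sets above the overall median of 5.78 on at least 3 arrays were tested, and all 11 genes were among them. Gene names came from the array platform's annotation, which can be out of date, matched to the RefSeq gene table of assembly ASM3414082v1: 22436 probe sets had 1 gene, 95 had several and 34850 had none. limma 3.58.1 in R 4.3.3 was fitted to 6 group means with an intensity trend, and p-values were adjusted by Benjamini-Hochberg over all tested probe sets at a threshold of 0.05. The 1 comparison tested was NIL-Bph6 against NIL-Bph6-RNAi averaged over the 3 times, which shares no covariance with changes within a line. Tables and figures were made with Python 3.11.15, pandas 2.3.3 and matplotlib 3.10.9.

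On simulated data for this comparison, with 32732 probe sets, the fit recovered 34 of 100 differences of 0.5 and 79 of 100 differences of 1 on the log2 scale. No other differences were planted and the noise was independent between probe sets. In the real data 1446 probe sets were called, so recovery there can differ. The genes and lists were chosen with earlier results of these data known. The intended rule for named genes took named members first, then members by line difference and the 3 nearest to the 48 h limit; since 11 genes were found, all were described. Gene lists were matched by symbol and synonym because the tables used carry no descriptions. Root and pollen markers found no match. As a check of the labels, 1 of 64 reporter and vector probe sets was higher on every NIL-Bph6-RNAi array than on every NIL-Bph6 array, and 0 were lower. The same share over all probe sets was not taken, so this count does not show that the construct is present. Replicate numbers did not pair the samples: over 45 pairs of arrays the deviations of those with the same number correlated at a mean of 0.0028. Alternatives changed the scaling, filter, variance model, covariates, arrays and limits of the rule. Promoter motifs and sequences were not analysed here.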

Additional observations from a re-analysis of the deposited data

Results flagged for a closer look

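Another CASP-like gene, OsCASPL5C1 (LOC4334238), drew notice because its arrays moved apart without overlap in opposite directions. Its mean log2 signal changed by -0.29 at 48 h in NIL-Bph6, with each 48 h array below each 0 h array, and by 0.36 in NIL-Bph6-RNAi, with each above. The opposite sign was not particular to it. Relative to the 0 h mean of their line, all 48 h arrays were higher in NIL-Bph6 and lower in NIL-Bph6-RNAi for OsCASPL1B1 (0.40 and -1.64), OsCASPL1C2 (0.45 and -0.84) and 1 probe set of OsCASPL2A1 (0.27 and -0.61), though their NIL-Bph6 arrays overlapped between the times. For OsCASPL5C1 the separation in NIL-Bph6 was narrow, with the lowest 0 h array at 9.83 and the highest 48 h array at 9.81. The share of all tested probe sets that moved apart in opposite directions was not taken, so nothing is read from this pattern. None of these differences was tested.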

How the results depend on the processing

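The median changes of the 11 genes moved by less than 0.29 under all alternatives run. That limit is the SD between replicates of the median level of the 11 genes. It is a spread of levels and not of changes, and that median falls on different genes from array to array, so it is a loose limit. When arrays were left out, the 48 h medians ran from 0.94 to 1.14 in NIL-Bph6 and from 1.37 to 1.63 in NIL-Bph6-RNAi. The rule selected 11 probe sets, 5 with a 6 h limit of 0.3, 7 with a 48 h limit of 1.0, 10 with a level limit of 8, and 8 to 17 with an array left out. The 17 came without NIL-Bph6 0 h replicate 3, and 9 of the 11 were among them. Under quantile normalization it selected 10, of which 9 were among the 11, and 9 genes were selected under all 3 other scalings. LOC4329575 was selected under none of the 3. The count of probe sets that differed between lines, 1446, became 2466 with array weights (1327 higher and 1139 lower in NIL-Bph6), 674 with the 3' to 5' covariate (324 and 350), 380 with a 2-fold minimum (175 and 205), and 964 to 1776 with an array left out. Among the 11 genes the count of 1 became 0 with the covariate and ran from 0 to 2 with an array left out: 0 without any of the 5 arrays named for LOC4330310 in the report, and 2 without NIL-Bph6 48 h replicate 1. For LOC4336422 the line difference of 0.04 became -0.0198 with median centring and -0.0332 with array weights, and ran from -0.0273 to 0.10 with an array left out. For LOC4325628 the difference of -0.0039 ran from -0.11 to 0.10. The cause was not tested for any of these. Of 308 values for single genes, 287 kept direction and side of the threshold. The replicate numbers share only a number; with the replicate block 1339 probe sets differed (704 higher and 635 lower), and the call for LOC4330310 stood. The difference between further probe sets at 2 level limits was not run, since no further single-gene probe set of the 11 genes reached the level of 7, and the promoter window was not run.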
